A study of Mus musculus with 16 samples.

Results

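The cytosolic ribosomal protein genes are described here in single cells of the mouse lung. Members were chosen by name alone: Rpl or Rps followed by digits and at most 1 letter of a, x or l, together with Rplp0, Rplp1, Rplp2, Rpsa and Rps3a1, and without names that mark a pseudogene by -ps. The rule took 82 of the 38003 genes in the deposited matrix, of which 49 encode proteins of the large subunit and 33 proteins of the small subunit. Of the 82, 81 had enough transcripts to be tested in at least 1 cell type and 32 in every type fitted, while Rpl39l, with 27 transcripts in all, was tested in none.

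Whole lungs were dissociated, live cells were sorted, and the cells were fixed and barcoded over several rounds of splitting and pooling (Parse Evercode WT v3), with reverse transcription primed by oligo(dT) and by random hexamers in the first round. The deposited table of 80449 cells gives 15 samples in 6 groups. Mice received vehicle, 6-OHDA (6-hydroxydopamine, a toxin of sympathetic nerve endings) or BIBO3304 (an antagonist of the neuropeptide Y receptor NPY1R), with 3 samples each and no seeded tumour cells, or the same 3 agents together with seeded pancreatic ductal adenocarcinoma (PDAC) cells, with 2 samples each. The sources used here do not give strain, age, sex, doses, times or the PDAC line, nor whether each sample is 1 mouse, so the spread between samples may be partly technical.

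The table names 22 cell types, and the mean log2 level of the markers was highest in the type of that name for all 22 lists. The same held for 103 of 116 single markers, but for only 2 of 5 cancer cell markers and 2 of 6 monocyte markers. The library labelled vehicle-PDAC 2 held no annotated cancer cell among 9157 cells, while the other samples with seeded PDAC cells held 33 to 75 each, and the 3 vehicle samples without seeded cells held 2, 1 and 1. Depth ran from 10003796 to 32580698 transcripts per sample. The 16 sequenced sublibraries are technical splits that each hold cells of all samples, and 8740 of 70289 distinct cell barcodes occurred in more than 1 of them.

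Ribosomal proteins build the 2 subunits of the ribosome around ribosomal RNA, the small subunit reading the mRNA and the large subunit forming the peptide bond. They are made in nearly equal amounts, and their mRNAs are short, abundant and found in every cell. Most of these mRNAs start with a C followed by a run of pyrimidines, the terminal oligopyrimidine (TOP) tract, through which mTORC1 and LARP1 set their translation and stability together. Growing cells hold more of these transcripts than resting cells, and lymphocytes are known for a high ribosomal fraction.

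The annotated start is shown for 7 members, because the TOP tract is the sequence feature known to tie these genes together. Each line gives 10 bases before the annotated start and 20 bases from it, 5′ to 3′ on the gene's strand, from RefSeq (GRCm38.p6), and capitals mark a C followed by at least 4 C or T letters that begins within 3 bases of the start. Rps6 lies at chr4:86857348-86857377 on the minus strand, Rps27 at chr3:90213629-90213658 on the minus strand, Rps10 at chr17:27635225-27635254 on the minus strand, Rps21 at chr2:180257369-180257398 on the plus strand, Rps27l at chr9:66946076-66946105 on the plus strand, Rps12 at chr10:23787190-23787219 on the minus strand and Rplp0 at chr5:115559457-115559486 on the plus strand.
Rps6: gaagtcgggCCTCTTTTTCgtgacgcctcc
Rps27: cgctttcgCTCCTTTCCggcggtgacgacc
Rps10: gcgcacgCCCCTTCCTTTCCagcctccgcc
Rps21: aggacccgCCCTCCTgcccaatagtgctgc
Rps27l: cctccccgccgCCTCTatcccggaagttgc
Rps12: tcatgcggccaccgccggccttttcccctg
Rplp0: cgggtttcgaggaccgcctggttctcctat
RefSeq starts matched 60 of the 82 members by symbol, with 72 annotated starts, and 25 of these starts (34.7%) held such a run, against 11.5% of all 32851 annotated starts. At least 1 start with a run was found for 24 of the 60 members (40%), against 13.5% of all genes. Most of the 7 shown hold a run, so they do not stand for the set. Rps21 and Rps27l each have another annotated start, not shown, without a run. The C stood exactly at the annotated start in 18.1% of member starts and in 2.51% of all starts. For Rps12 and Rplp0 these letters are not within 3 bases of the annotated start, which says nothing of the transcripts' true first base. The match is a description and rests on annotated starts, which can differ from those used in the lung.

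The members together took 1725272 of 271140315 transcripts, or 0.636%. This share of transcripts is the quantity used below for the set as a whole. It is relative: more ribosomal protein mRNA and less of other RNA in a cell cannot be told apart. It ran from 0.592% to 0.684% over the sublibraries.

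By the median over samples, cancer cells and B cells stood at the top of the cell types and capillary endothelium at the bottom. Club and alveolar type 1 cells, with only 2 samples each, are left out of this order. The median share over samples was 1.34% in cancer cells, 0.902% in B cells and 0.865% in T cells, with club cells at 0.877% from only 2 samples. Dendritic cells (0.770%), alveolar type 2 (AT2) cells (0.739%), which make surfactant, alveolar macrophages (0.725%) and natural killer cells (0.710%) had neighbouring values. Alveolar fibroblasts had 0.534%, neutrophils 0.518%, general capillary cells 0.484% and aerocytes, the capillary cells of gas exchange, 0.430%. Alveolar type 1 cells had 0.294%, from only 2 samples with at least 20 such cells. These were vehicle 1 (0.363%, against 0.475% in aerocytes) and BIBO3304 2 (0.226%, against 0.194% in aerocytes). Both samples with club cells were vehicle samples, and the vehicle mean of AT2 cells was 0.986%, above the club cells' 0.877%.

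The ranges over samples overlapped between nearly all of these types: B cells ran from 0.529% to 1.50%, AT2 cells from 0.337% to 1.36% and aerocytes from 0.194% to 0.989%. Only the cancer cells, at 1.10% to 2.13% in 5 samples, were above the upper end of aerocytes. Differences between types are a description, since the types were annotated on the same expression data. Of the variation of the log2 share over the 17 types that had all 15 samples, 59.9% lay between samples, 30.9% between types and 9.18% was left.

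**Figure D1:**
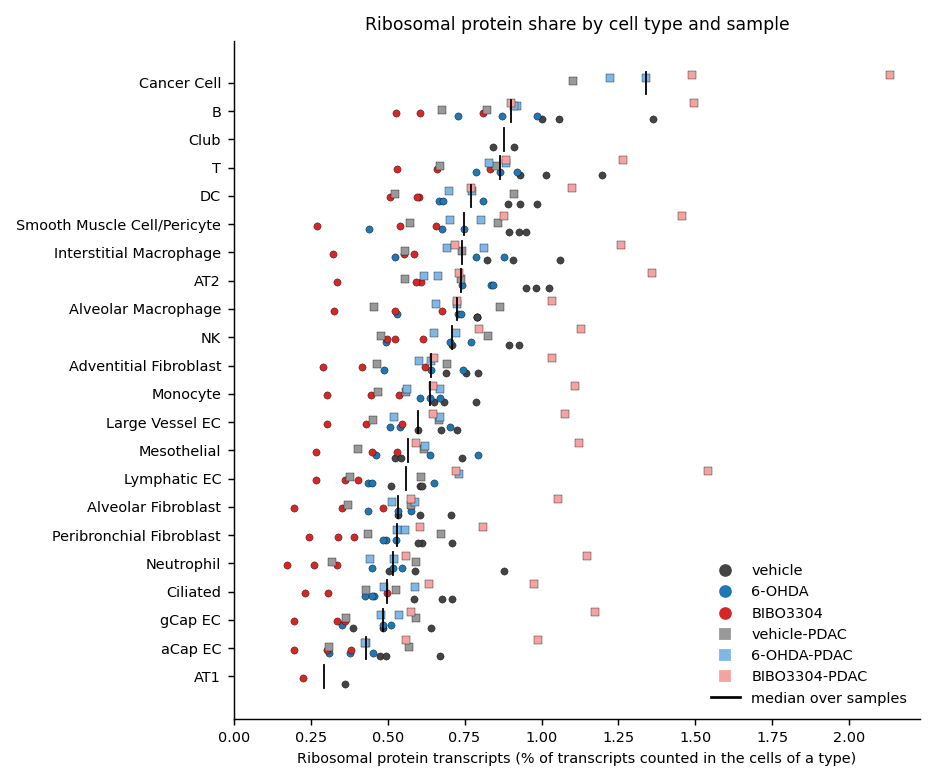
Percent of transcripts from ribosomal protein genes (horizontal axis) by cell type, each point 1 sample with at least 20 cells of that type, coloured by group, with a black line at the median over samples. BIBO3304 2 is the lowest sample in 16 of the 17 types with all samples, and BIBO3304-PDAC 2 the highest in 17 of 17.

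Vehicle samples 1, 2 and 3 had shares of 0.733%, 0.807% and 0.735%. The 6-OHDA samples had 0.522%, 0.669% and 0.673%, all below the vehicle samples. The BIBO3304 samples had 0.565%, 0.286% and 0.447%, with sample 2 far below every other sample of the study.

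With PDAC cells seeded the order turned. The vehicle-PDAC samples had 0.493% and 0.777%, which spans most of the values without PDAC cells. The 6-OHDA-PDAC samples had 0.706% and 0.749%, between the vehicle-PDAC samples. The BIBO3304-PDAC samples had 0.719% and 1.22%, the second being the highest of all 15 and 4.25 times the share of BIBO3304 2. Exact binomial 95% intervals, which cover counting error only, ran from 1.21% to 1.22% for that sample and were no wider for the others, so counting does not limit these values.

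Depth per cell moved with the share. The median cell of BIBO3304 2 held 4846 transcripts and that of BIBO3304 3 held 3534, against 1640 to 1906 in the vehicle samples and 1623 in BIBO3304-PDAC 2. In 14 of 15 samples the share was lowest in cells with 4000 transcripts or more. In cells with 1000 to 2000 transcripts BIBO3304 2 had 0.509% and BIBO3304-PDAC 2 had 1.38%, and within alveolar macrophages of that depth they had 0.814% and 1.32%. In cells with at least 4000 they had 0.268% and 1.05%, but that range has no upper end and includes deep cancer cells, and in alveolar macrophages the values there were 0.313% and 0.645%. From 4000 transcripts the BIBO3304 samples had 0.425%, 0.268% and 0.425% and the vehicle samples 0.398%, 0.634% and 0.479%, so these groups overlapped. With 1000 to 2000 transcripts they had 0.884%, 0.509% and 0.599% against 1.27%, 0.943% and 1.01%, without overlap. The comparisons refitted in cells of a fixed range of depth are given beside the results they move.

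The share also differed between wells of the same sample. Cells of each sample were loaded into 4 to 6 wells of the first barcoding round, 75 wells in all. In vehicle 1 the wells ran from 0.355% to 1.74%, a 4.89-fold span that holds the values of 14 of the 15 samples. Wells of vehicle 3 ran from 0.320% to 1.19% and those of BIBO3304-PDAC 2 from 0.598% to 1.98%, while those of BIBO3304 2 stayed between 0.261% and 0.313%. In 9 of 15 samples the wells spanned more than 2-fold. The spread was there within 1 cell type too: alveolar macrophages of vehicle 1 ran from 0.389% to 2.15% between wells.

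The wells fall by position into a section from B4 to E12 (45 wells), a section from F9 to H11 (27 wells) and 3 other wells, F4, F6 and H12. The second section had the lower share in 13 of 15 samples. It also held more alveolar macrophages in 15 of 15 samples, with a median over wells of 43.9% of a well's cells against 15.6% in the first section. BIBO3304-PDAC 2 had 1.50% in its first-section wells and 0.647% in the second, and vehicle 1 had 1.20% and 0.452%. What the sections are is not stated in the labels, and their part in the differences was not tested beyond the fits within each section given below.

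**Figure D2:**
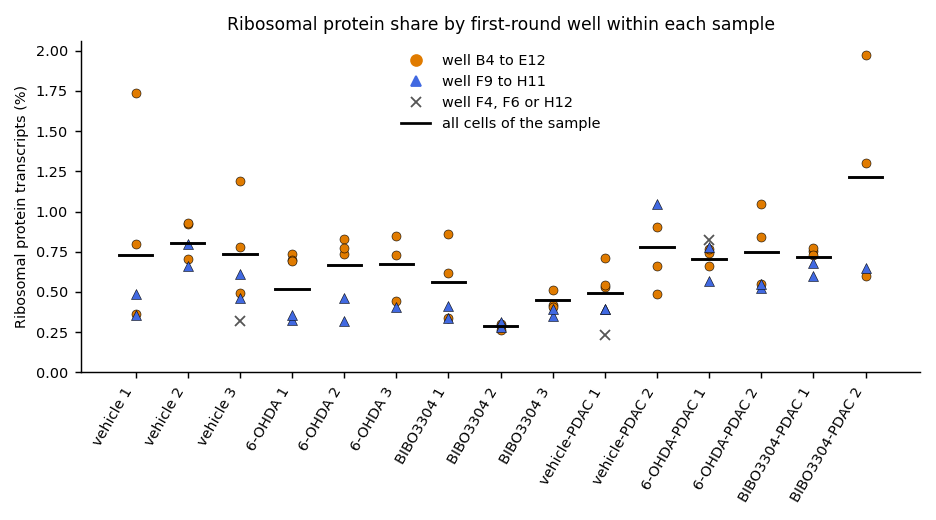
Percent of transcripts from ribosomal protein genes (vertical axis) in each first-round well of each sample, marked by plate section, with a black bar for all cells of the sample. Wells of vehicle 1 run from 0.355% to 1.74%, and those of BIBO3304 2 stay near its bar at 0.286%.

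Ribosomal protein transcripts were lower in BIBO3304-treated than in vehicle-treated lungs without PDAC cells, in nearly every cell type. The comparison addresses what blocking NPY1R does in the lung. The share in AT2 cells was 0.513% ± 0.153 (SD, n = 3) with BIBO3304 and 0.986% ± 0.037 (SD, n = 3) with vehicle. In neutrophils it was 0.256% ± 0.0822 (SD, n = 3) against 0.656% ± 0.196 (SD, n = 3). The median depth was 6003 against 1831 transcripts per cell in AT2 cells and 1483 against 996 in neutrophils. Among AT2 cells with at least 4000 transcripts, the BIBO3304 samples had 0.486%, 0.330% and 0.577%. Vehicle 1 and 3 had 0.491% and 0.615% there, so the groups overlapped, and vehicle 2 had too few such cells. By the share over all cells of a type, all 3 BIBO3304 samples were below all 3 vehicle samples in 18 of 19 types. The median log2 ratio over types was −0.76. In cells with 1000 to 4000 transcripts the ratio was −0.39. The SD of the log2 share within groups was 0.34, as a median over types.

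Gene by gene, edgeR's quasi-likelihood test with Benjamini-Hochberg adjustment called 33 pairs of member and cell type lower and 0 higher, of 1181 pairs tested. They came from 26 genes. Over all genes tested, 0.227% of pairs were called lower and 0.0802% higher. AT2 cells held 23 of the 33 (of 75 members tested there, where 1.41% of all genes were called lower), B cells 7 (of 69, with 0.376% of all genes), and aerocytes, alveolar fibroblasts and smooth muscle cells or pericytes 1 each (with 0.197%, 0.681% and 0.0503% of all genes). The median log2 difference over the 1181 pairs was −0.74, and 1092 pairs were below 0. Over all genes it was 0.0015, where TMM scaling places most genes near 0. Types and members of a sample are not independent, so counts of pairs or types repeat the differences between the same few samples. At an unadjusted p under 0.05, 633 pairs were lower and 2 higher, against 7.44% and 5.48% of all pairs. The groups did not overlap, with BIBO3304 below, in 604 pairs (51.1%), against 10% of all pairs, and with BIBO3304 above in 6 (0.508%), against 9.21%.

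Without BIBO3304 2 and without vehicle 2 the same test made 0 calls, without BIBO3304 3 it made 96, and without vehicle 1, vehicle 3 or BIBO3304 1 it made 2, 10 and 6. In cells with 1000 to 4000 transcripts, 5 pairs were called. Calls over all genes were not counted in these refits. Within wells B4 to E12 alone, 299 of 1050 pairs were called lower (1.75% of all pairs), and within wells F9 to H11, 42 of 499 (0.969% of all pairs), of which alveolar macrophages held 34 of the 80 members tested.

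Rps26, a protein of the small subunit at the mRNA exit, had close values within the vehicle and the BIBO3304 group in B cells. There it had 337, 312 and 318 CPM (counts relative to library size, with TMM factors) in the vehicle samples and 119, 102 and 116 in the BIBO3304 samples. The 2 groups were far apart, with the 6-OHDA samples between them at 163, 236 and 192. The log2 difference was −1.52 (SE 0.27, adjusted p = 0.0325, edgeR). In AT2 cells the vehicle samples had 247, 279 and 255 and the BIBO3304 samples 118, 59.8 and 159, again without overlap (log2 −1.21, adjusted p = 0.0272, edgeR).

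The P proteins Rplp0, Rplp1 and Rplp2 form the stalk of the large subunit that recruits elongation factors. Rplp1 in B cells had 207, 355 and 184 CPM with vehicle and 90.0, 41.6 and 57.8 with BIBO3304 (log2 −2.03, SE 0.36, adjusted p = 0.0325, edgeR). Every vehicle sample was at least 2-fold above every BIBO3304 sample. It was called in AT2 cells too and was negative in 19 of 19 types, with a median log2 of −1.28. Rplp2 was negative in 15 of 15 types (median −0.95, smallest adjusted p 0.0768, edgeR) and Rplp0 in 19 of 19 (median −0.74, smallest adjusted p 0.157, edgeR), so neither passed in any type.

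Rpl39, a very small protein that lines the exit tunnel of the large subunit, had 169, 207 and 106 CPM in vehicle B cells and 58.2, 18.7 and 36.5 with BIBO3304 (log2 −2.15, SE 0.42, adjusted p = 0.0325, edgeR). Rpl22, an RNA-binding protein known for its role in T cell development, had 261, 244 and 226 CPM in vehicle B cells and 97.9, 62.5 and 88.2 with BIBO3304. Its groups lay far apart (log2 −1.56, adjusted p = 0.0325, edgeR). Rps21 in B cells had 391, 502 and 235 CPM against 127, 54.1 and 137, and Rps28 had 356, 341 and 263 against 148, 77.1 and 131. Both passed in B cells and in AT2 cells. Rpl37 (log2 −1.48) was the seventh member called in B cells.

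Rps12, a small-subunit protein known as a sensor in cell competition, passed in aerocytes and in AT2 cells. In aerocytes it had 451, 954 and 384 CPM with vehicle and 209, 78.0 and 200 with BIBO3304 (log2 −1.78, SE 0.36, adjusted p = 0.0182, edgeR). In AT2 cells it had 871, 1290 and 747 against 338, 134 and 517 (log2 −1.54, adjusted p = 0.0376, edgeR). The groups did not overlap in either type. Rps12 was negative in 19 of 19 types, and at an unadjusted p under 0.05 in all 19, which come from the same samples.

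In AT2 cells Rps25 (202, 162 and 162 CPM against 89.3, 43.8 and 112) and Rpl7 (200, 255 and 221 against 99.2, 80.5 and 150) were among the 23 calls, with log2 differences of −1.13 and −1.02. The other AT2 calls lay between −0.79 for Rps27 and −1.40 for Rps21, apart from Rps12, Rplp1 (−1.54) and Rpl39 (−1.53). Rpsa, the laminin-receptor protein of the small subunit, was among them (295, 361 and 275 CPM against 134, 63.7 and 182). Rpl23a fell in alveolar fibroblasts, from 63.3, 74.3 and 65.6 CPM to 45.2, 26.1 and 41.5 (log2 −0.84, adjusted p = 0.0281, edgeR). Rps10 fell in smooth muscle cells or pericytes, from 180, 194 and 113 CPM to 0, 11.5 and 13.6 (log2 −3.87, SE 0.77, adjusted p = 0.0327, edgeR), a value that rests on 97 transcripts over all samples.

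Some members differed less from vehicle than the median of −0.74 over all member pairs. Rps6, the classic target of S6 kinase, had 9.61 to 19.7 CPM over the 15 samples and a median log2 difference of −0.06 over 9 types. Rpl3, which shapes the peptidyl transferase centre, had a median of 0.02 over 13 types, Rps4x 0.15 over 14 and Rpl10, which joins the large subunit last, 0.22 over 9. Rps27a, made as a fusion with ubiquitin, had −0.30 over 13 types and Rps3a1 −0.26 over 15. None of these 6 passed in any type. Rpl5 and Rpl11, which carry the 5S RNA and bind MDM2, were near the median of all member pairs, at −0.72 over 17 and 18 types. Their smallest adjusted p were 0.0738 and 0.0554 (edgeR), so they did not pass either.

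**Figure D3:**
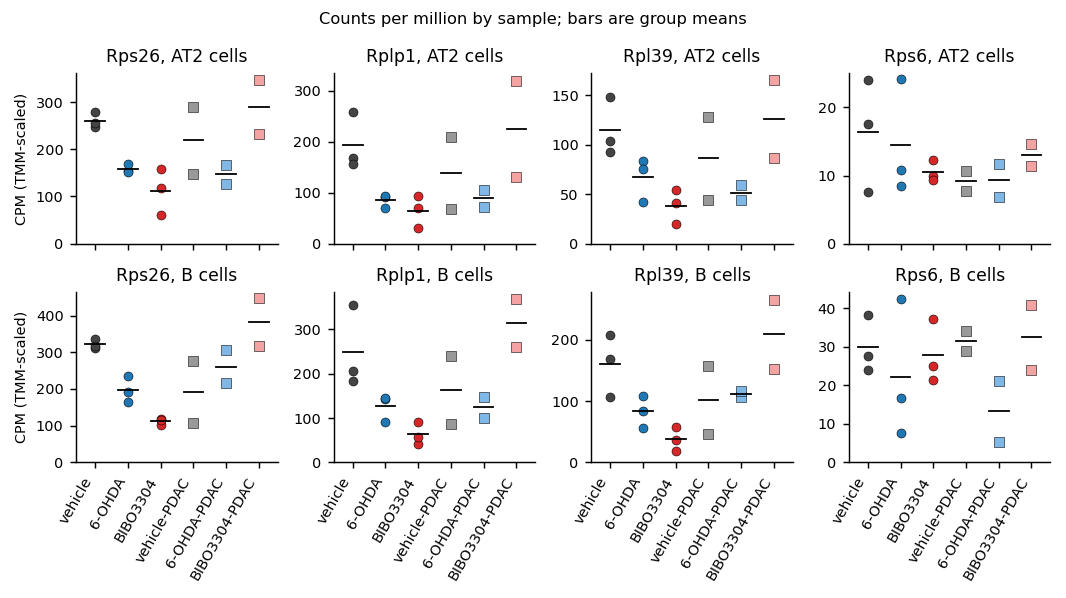
CPM (TMM-scaled, vertical axes from 0) of Rps26, Rplp1, Rpl39 and Rps6 in AT2 cells and B cells, each point 1 sample by group, with bars at the group means. Rps26 in B cells lies between 312 and 337 with vehicle and between 102 and 119 with BIBO3304, while Rps6 overlaps between all groups without PDAC cells.

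Large-subunit members gave 14 and small-subunit members 19 of the 33 calls, with median log2 differences of −0.72 and −0.79 over 678 and 503 pairs. Ribosomal protein genes outside the name rule (6 genes such as Fau, Rack1 and Rpl36al) had a median of −0.86, with 3 of 77 pairs called lower, close to the members' value.

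Short transcripts of other kinds were lower too, by less. By annotated length (GENCODE vM21, GRCm38, matched by symbol), the members had a median of 776 bases and 64 of the 82 were at most 1000 bases, against a median of 2620 bases and 11.1% among all genes tested. Among other genes the median log2 difference with BIBO3304 rose with length, from −0.48 up to 500 bases to −0.17 at 1001 to 1500 bases and 0.10 above 5000 bases. Up to 1000 bases, members had a median of −0.76 and the other genes −0.32, with 77 of 7023 pairs of the latter called lower. With the length trend removed per sample, 3 member pairs were called lower, all in B cells (0.0907% of all pairs), the median was −0.45, and Rps27 in AT2 cells turned to a log2 difference of 0.023. The part of fragment or transcript length in the rest was not tested.

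**Figure D4:**
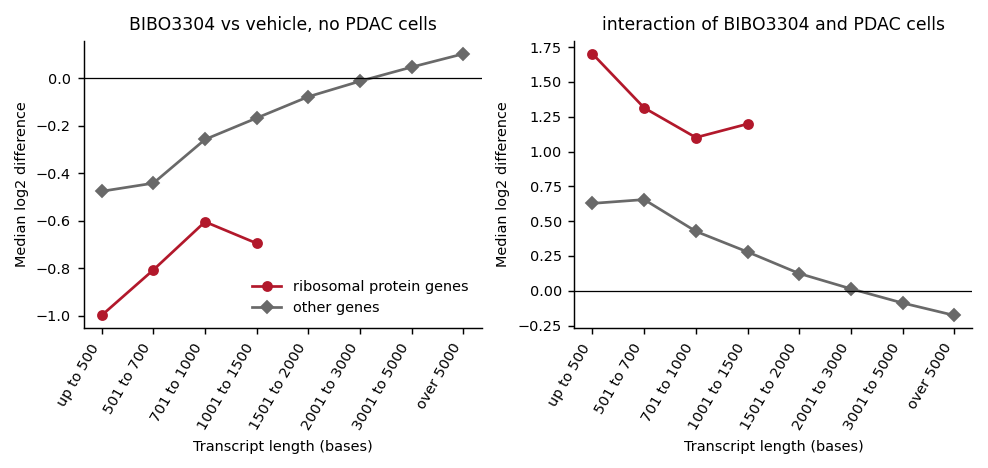
Median log2 difference (vertical axis) of ribosomal protein genes and other genes by annotated transcript length in bases (horizontal axis), for BIBO3304 against vehicle without PDAC cells (left) and for the interaction of BIBO3304 with PDAC cells. Other genes up to 500 bases have −0.48 in the left panel and those above 5000 bases 0.10, and members lie below the other genes of their length on the left and above them on the right.

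With 6-OHDA and no PDAC cells the summed share was lower in part of the types, and no member passed. The comparison addresses loss of sympathetic endings and shares its vehicle samples with the BIBO3304 comparison. AT2 cells had 0.806% ± 0.0567 (SD, n = 3) against 0.986% ± 0.037 (SD, n = 3), and B cells 0.862% ± 0.129 (SD, n = 3) against 1.14% ± 0.193 (SD, n = 3). The groups' shares did not overlap in 9 of 19 types, all with 6-OHDA below, and the median log2 ratio over types was −0.29 beside a within-group SD of 0.17. By edgeR, 0 of 1181 pairs were called, where 0.0502% of all pairs were called higher and 0.0167% lower, and DESeq2 called 1. At an unadjusted p under 0.05, 172 pairs were lower and 9 higher, against 4.03% and 3.69% of all pairs. The groups did not overlap in 287 pairs with 6-OHDA below (24.3%, against 7.54% of all pairs) and in 14 with 6-OHDA above (1.19%, against 6.83%). The median log2 difference was −0.33, and 920 pairs were below 0.

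The smallest p-values for 6-OHDA were those of Rpl27 and Rplp1 in dendritic cells, which did not pass. Rpl27 had 72.0, 81.1 and 59.8 CPM with vehicle and 24.2, 21.0 and 31.2 with 6-OHDA, with no overlap (log2 −1.48, adjusted p = 0.0708, edgeR). Rplp1 there had a log2 difference of −1.21 at the same adjusted p of 0.0708 (edgeR), and it was negative in 19 of 19 types. Rpsa and Rpl39 were negative in 19 of 19 types as well, with medians of −0.54 and −0.63, while Rps3a1 (median 0.34, positive in 12 of 15 types) and Rpl3 (0.33, positive in 11 of 13) had positive values. Rpl39 in ciliated cells and Rpl17 in B cells were also among the smallest p, with adjusted p of 0.501 and 0.475 (edgeR).

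With PDAC cells seeded, ribosomal protein values were higher with BIBO3304 than with vehicle, and no member passed. The share was 1.05% ± 0.445 (SD, n = 2) in AT2 cells with BIBO3304-PDAC and 0.648% ± 0.128 (SD, n = 2) with vehicle-PDAC, and 0.855% ± 0.416 (SD, n = 2) against 0.455% ± 0.191 (SD, n = 2) in neutrophils. The groups did not overlap in 6 of 19 types, all with BIBO3304-PDAC above, and the median log2 ratio was 0.69 beside a within-group SD of 0.47. Within wells F9 to H11 the ratio was −0.14, the opposite sign. By edgeR 0 of 1181 pairs were called, against 0.00617% of all pairs called higher and 0.0255% lower, and by DESeq2 0. At an unadjusted p under 0.05, 195 were higher and 0 lower, against 3.61% and 4.15% of all pairs. BIBO3304-PDAC was above without overlap in 328 pairs (27.8%), against 17.2% of all pairs, and below in 14 (1.19%), against 18.5%. The median log2 difference was 0.50, and 0.23 without BIBO3304 2 and BIBO3304-PDAC 2.

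The smallest p was that of Rpl23a in general capillary cells (log2 1.19, adjusted p = 0.189, edgeR). Rpl39 in ciliated cells had 39.8 and 90.3 CPM in the vehicle-PDAC samples and 234 and 295 in the BIBO3304-PDAC samples, without overlap (log2 1.91, adjusted p = 0.390, edgeR). Rps12 and Rplp1 in lymphatic endothelium and Rps10 in monocytes followed, with adjusted p of 0.218, 0.356 and 0.283 (edgeR).

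No member passed for 6-OHDA with PDAC cells or for PDAC cells alone. For 6-OHDA against vehicle with PDAC cells, edgeR called 0 of 1096 pairs in 17 types, against 0.114% of all pairs higher and 0.29% lower, with 11 pairs higher and 11 lower at an unadjusted p under 0.05 (3.32% and 4.15% of all pairs), and DESeq2 called 0. The groups did not overlap in 87 pairs above and 49 below, against 17.3% and 17.5% of all pairs. The median log2 difference over pairs was −0.08, while the summed share had a median log2 ratio of 0.082 over types, with 6-OHDA above without overlap in 2 types and below in 0. Within wells F9 to H11 that ratio was −0.34. Rpl28 in T cells (log2 −2.79, adjusted p = 0.792, edgeR) and Rps2 in general capillary cells (1.07, adjusted p = 0.322, edgeR) had the smallest p-values. For PDAC cells against none under vehicle, edgeR called 0 of 1181 pairs, against 0.000881% of all pairs in each direction, with 2 pairs higher and 33 lower at an unadjusted p under 0.05 (2.41% and 2.49% of all pairs), and DESeq2 called 0. The groups did not overlap in 19 pairs above and 80 below (1.61% and 6.77%), against 9.51% and 9.22% of all pairs. The share was lower in 19 of 19 types by its mean, and the groups did not overlap in 7, with a median log2 ratio of −0.37. Within wells F9 to H11 the ratio was 0.33, the opposite sign. The vehicle-PDAC samples differ widely, at 0.558% and 0.739% in AT2 cells, and 1 of them holds no annotated cancer cell.

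**Figure D5:**
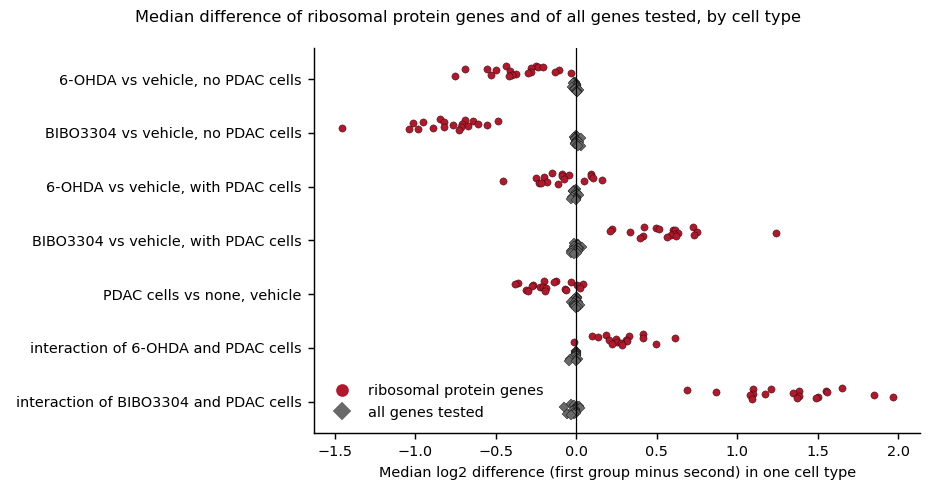
Median log2 difference (horizontal axis, first group minus second) of the ribosomal protein genes and of all genes tested in each cell type, for each comparison (rows), 1 point per cell type. Members lie below 0 for BIBO3304 without PDAC cells (median over all pairs −0.74) and above 0 for its interaction with PDAC cells (1.27). All genes stay near 0, where TMM scaling places most genes.

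The interaction, which tests the difference between the effects of BIBO3304 with and without PDAC cells, called 55 of 1181 pairs higher and 0 lower in edgeR's test, from 30 genes, where 0.255% of all pairs were called higher and 0.159% lower. B cells held 25 calls (1.85% of all genes there), AT2 cells 11 (0.867%), monocytes 10 (0.477%) and neutrophils 6 (0.485%), and alveolar fibroblasts (Rpl23a), ciliated cells (Rpl39) and interstitial macrophages (Rpl13) 1 each (0.285%, 0.031% and 0.326%). The median log2 value was 1.27, 690 pairs had an unadjusted p under 0.05 on the higher side and 0 on the lower (7.12% and 5.92% of all pairs), and 17 pairs were called both here and for BIBO3304 without PDAC cells, with which the interaction shares its samples.

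The calls for the interaction depend on single samples of the groups without PDAC cells. Leaving out 1 sample with PDAC cells leaves 1 in its group, so no counts are given for those fits. The interaction gave 7 calls in cells with 1000 to 4000 transcripts. It gave 127 calls without BIBO3304 3, and 1, 3, 12 and 22 without vehicle 2, BIBO3304 2, BIBO3304 1 and vehicle 1. Calls over all genes were not counted in these refits. Within wells B4 to E12 the interaction called 257 pairs (1.15% of all pairs) and within wells F9 to H11 3 pairs (0.266% of all pairs). With the length trend removed it called 12 (0.0705% of all pairs), of which B cells and neutrophils held 6 each.

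Rps26 in B cells had 108 and 276 CPM in the vehicle-PDAC samples and 316 and 447 in the BIBO3304-PDAC samples, beside the values without PDAC cells given above. BIBO3304 samples were thus below vehicle without PDAC cells and above it with them, with an interaction of 2.49 on the log2 scale (SE 0.42, adjusted p = 0.0245, edgeR). Rplp1 in B cells had 86.7 and 240 against 260 and 368 CPM (interaction 2.95, SE 0.54, adjusted p = 0.0245, edgeR). Rpl39 in ciliated cells, with 74.9, 184 and 119 CPM under vehicle and 68.3, 24.0 and 46.8 under BIBO3304, had the value 3.36 (SE 0.65, adjusted p = 0.0363, edgeR).

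Rpl13 was called in 4 types, more than any other member. In monocytes it had 233, 260 and 152 CPM with vehicle, 105, 67.3 and 131 with BIBO3304, 132 and 269 with vehicle-PDAC and 227 and 386 with BIBO3304-PDAC (interaction 1.83, adjusted p = 0.0466, edgeR). Only without PDAC cells were the groups free of overlap. Rps10 and Rps24 in monocytes had 2.67 and 2.09 (both adjusted p = 0.0430, edgeR). Rps21 (2.74), Rps28 (2.27) and Rpl26 (1.79) were called in B cells. All 9 of these genes had positive interactions in 19 of 19 types. Rpl10, Rps4x and Rps6 had medians of −0.26, −0.20 and 0.11 and passed in none.

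For 6-OHDA the interaction called 0 of 1096 pairs by edgeR, against 0% of all pairs higher and 0.00744% lower, with 35 pairs higher and 2 lower at an unadjusted p under 0.05 (2.39% and 2.73% of all pairs), and DESeq2 called 0. The median was 0.26. The smallest p was that of Rps2 in general capillary cells (log2 1.80, adjusted p = 0.682, edgeR).

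Between the lowest and the highest sample, members differed by unequal amounts. These 2 samples were picked by the members' own summed share, so a common direction follows from the choice, and only the unequal amounts are described. Of 75 members with at least 100 transcripts in both BIBO3304 2 and BIBO3304-PDAC 2, 74 had the higher CPM in BIBO3304-PDAC 2, by a median ratio of 3.57. Rps12 went from 105 to 1173 CPM, 11.2-fold, Rps21 8.81-fold, Rplp1 8.28-fold, Rpl39 7.85-fold and Rpsa 6.68-fold. Rpl5 differed 2.67-fold, Rpl3 1.95-fold and Rps6 1.53-fold. The exception was Rpl10, with 23.2 CPM in BIBO3304 2 and 12.3 in BIBO3304-PDAC 2. Over these 75 members Spearman's rho of the ratio was 0.65 with the level and −0.17 with the length. The level was the sum of the CPM in the same 2 samples and so holds the ratio's numerator. Part of its correlation is thus built in, and the 2 rho values cannot be compared. Both are descriptions across genes of the same 2 libraries.

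The members' parts of the ribosomal transcripts moved between samples. Rps12 took 7.08% of the ribosomal transcripts over all cells and 3.68% to 9.65% by sample. The part of Rpl10 ran from 0.101% to 0.813%, that of Rps4x from 0.362% to 1.06% and that of Rps3a1 from 0.567% to 1.41%. A few members were skewed by cell type: among members at 100 CPM or more in the median type, Rpl21 took 3.70% of the ribosomal transcripts in AT2 cells against 2.21% in the median type, and Rpsa 4.96% in dendritic cells against 3.47%. Rps26 (3.63% against 2.51%) and Rplp1 (2.88% against 1.91%) had their highest parts in cancer cells and Rpl12 (2.83% against 2.07%) in T cells. Cancer cells come almost wholly from samples with seeded PDAC cells, where these parts differ over all cells too: in the BIBO3304-PDAC samples they had means of 3.03% for Rps26 and 2.60% for Rplp1, against 2.16% and 1.70% in the BIBO3304 samples. Sample and cell type were not separated for these parts. Rpl22 had its highest part in alveolar type 1 cells, from 46 transcripts.

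Among the paralogs, Rpl3l, known from muscle, had 379 of its 542 transcripts (69.9%) in alveolar macrophages, at 3.92 CPM, against 0.908 CPM in the median type. Rps4l stood at 33.7 CPM in cancer cells and 17.1 in alveolar macrophages, against 6.19 in the median type. Rps27l, a p53 target, had its highest values in cancer cells (35.1 CPM) and ciliated cells (28.4 CPM). Rpl6l had 195 transcripts in all. Near-identical copies make such splits uncertain, since how reads shared with a copy were counted is not given: the 218 genes named as ribosomal pseudogenes held 20064 transcripts, 1.16% as many as the members.

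Related gene lists had smaller medians than the members, with no test between lists. Other TOP mRNAs, mostly translation factors (17 genes such as Eef1a1, Eef2 and Tpt1), had a median log2 difference of −0.29 for BIBO3304 without PDAC cells, with 0 of 294 pairs called by edgeR and 58 lower and 9 higher at an unadjusted p under 0.05. Ribosome biogenesis factors (24 genes such as Ncl and Fbl) had −0.20 with 1 of 235 called lower, mitochondrial ribosomal proteins (75 genes) −0.22 with 0 of 333 called by edgeR and 40 lower and 7 higher at an unadjusted p under 0.05, and genes of mTORC1 and TOP control (18 genes) 0.13 with 1 of 197 called lower. Genes encoded in the mitochondrial genome, 7 of which were tested, had −0.63 with 9 of 128 called lower. At an unadjusted p under 0.05 by edgeR, 72 of the 128 were lower and 0 higher. The members had 33 of 1181 called lower and 633 lower at that unadjusted p. Over all genes, 0.227% of pairs were called lower and 7.44% were lower at that unadjusted p. A fall with BIBO3304 was thus not particular to the members.

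For the interaction with BIBO3304 the order was similar. The medians were 1.32 for the ribosomal genes outside the name rule (4 of 77 called higher), 0.76 for the mitochondrially encoded genes (1 of 128), 0.60 for other TOP mRNAs (2 of 294), 0.45 for mitochondrial ribosomal proteins (1 of 333), 0.31 for biogenesis factors (0 of 235 by edgeR, 34 higher and 0 lower at an unadjusted p under 0.05) and −0.14 for mTORC1 and TOP control (0 of 197 by edgeR, 7 higher and 13 lower at an unadjusted p under 0.05). The members' own median was 1.27, and 0.255% of all pairs were called higher.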

How the data were processed

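Single-cell counts of 15 lung samples were analysed. The values in the deposited matrix are raw counts of transcripts, not normalised by the authors. Their sums equalled the total that the authors list for 99.0% of cells. Seurat 5.3.0 and mm39 are named per the submitters' processing notes. The sources used here do not name an aligner, a counter, cell filters or a removal of doublets, and no doublet caller was run. Groups and cell types were taken from the deposited cell table, since the GEO entries are sublibraries of all treatments.

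Since cells are not replicates, the counts of each type were added up within a sample, where it had at least 20 such cells, and a type needed 2 samples in each group. All 6 groups were fitted together with edgeR 4.0.16 in R 4.3.3 (filterByExpr, TMM, quasi-likelihood test, Benjamini-Hochberg adjustment over all genes of a type, threshold 0.05). DESeq2 1.42.0 was an alternative. Shares in percent were computed here from the counts, with no test. On simulated counts for BIBO3304 against vehicle, 47.4% of 2-fold and 91.6% of 4-fold changes were recovered among 7803 genes of AT2 cells, and 33.7% and 86.3% among 5328 genes of B cells. These counts were drawn for each gene alone, without shifts that the members of a sample share. The rates may thus not hold for the members.

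Members and gene lists were chosen with earlier results of these data known. Named members were the 10 called in the most types per comparison, or, with fewer than 5 called, the 5 with the smallest p, together with stalk, 5S, ubiquitin-fusion and paralog genes and the 6 most skewed by type. Some genes are not reported by name here. Other AT2 and B cell calls were named after their values were seen. P-values measure only the spread between these samples.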

Additional observations from a re-analysis of the deposited data

Results flagged for a closer look

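The effect of BIBO3304 on ribosomal protein genes differed with and without PDAC cells by the interaction term of edgeR's quasi-likelihood fit, with 55 pairs of member and cell type past the threshold. The 9 members named for it had these interaction values on the log2 scale. In B cells they were 2.95 for Rplp1, 2.74 for Rps21, 2.49 for Rps26, 2.27 for Rps28 and 1.79 for Rpl26. In monocytes they were 2.67 for Rps10, 2.09 for Rps24 and 1.83 for Rpl13, and in ciliated cells 3.36 for Rpl39. The count was 3 without BIBO3304 2 and 1 without vehicle 2. Leaving out 1 sample with PDAC cells leaves 1 in its group, so no count is given for that. Depth per cell, plate section and transcript length moved with these values, as given above.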

How the results depend on the processing

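For BIBO3304 against vehicle without PDAC cells (33 calls) and its interaction with PDAC cells (55 calls), the counts were 63 and 93 with library totals alone, 225 and 237 with no filter on low counts, 78 and 87 by DESeq2, 94 and 101 without the 5% deepest cells, and 5 and 7 in cells with 1000 to 4000 transcripts, where fewer cells enter. The first was 105 with only its own groups fitted. Leaving out 1 sample gave 0 to 96 and 0 to 393. For 6-OHDA without PDAC cells (0 calls) the count was 22 with no filter, 1 by DESeq2, 2 with the sample number as a replicate block, 1 with cells thinned to 1000 transcripts, 5 with only its groups, and 0 to 1 leaving out 1 sample. For 6-OHDA with PDAC cells it was 1 in cells with 1000 to 4000 transcripts. With no filter it was 10 for BIBO3304 with PDAC cells and 1 for PDAC cells under vehicle. Leaving out 1 sample with PDAC cells leaves 1 in its group, so no counts are given for those fits. The causes of these shifts were not tested. In these settings calls over all genes were not counted, so shifts of the members cannot be told from shifts of all genes.

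Whether the numbers pair the samples is not known. Over 33 pairs of same-numbered samples, correlations of deviations ran from −0.417 to 0.657 and 11 were over 0.1. No correlations between samples of different numbers were set beside these, so they cannot decide whether the samples are paired. With the block the calls for BIBO3304 and its interaction were 36 and 38.

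Chosen after seeing the data were the plate sections, the length trend and the removal of both extreme samples. Wells B4 to E12 gave 1 call for 6-OHDA without PDAC cells, 299 for BIBO3304 and 257 for the interaction. Wells F9 to H11 gave 3 for the interaction, and the length trend removed gave 3 for BIBO3304 and 12 for the interaction. Without both BIBO3304 2 and BIBO3304-PDAC 2 there were 0 calls for BIBO3304 without PDAC cells. For the interaction that leaves 1 BIBO3304-PDAC sample, so no count is given. The log2 share ratio moved in wells F9 to H11 to −0.63 for 6-OHDA without PDAC cells, and turned in sign to −0.34 for 6-OHDA with PDAC cells, to −0.14 for BIBO3304 with PDAC cells and to 0.33 for PDAC cells under vehicle. In wells B4 to E12 it moved to −1.16 for BIBO3304 without PDAC cells and −0.66 for PDAC cells under vehicle, and in cells with 1000 to 4000 transcripts to −0.39 for BIBO3304. Leaving out 1 sample, the ratios ran from −0.38 to −0.19, −1.01 to −0.59, −0.19 to 0.43, 0.26 to 1.02 and −0.69 to −0.090, in the order 6-OHDA and BIBO3304 without PDAC cells, 6-OHDA and BIBO3304 with them, and PDAC cells under vehicle. Rps27 in AT2 cells turned to 0.023 for BIBO3304 with the length trend removed.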
